A study of Homo sapiens with 57 samples.

Results

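CDH2, VIM, CTNND1 and ACTB are 4 of the 412 genes on a panel that was read in HK-2 cells by RASL-seq, and they encode parts of the structure that joins a cell's surface to its skeleton. They were chosen by gene, with the values that each herb gave against its DMSO wells already known. Those herb values are therefore given below as a description, with no test. RASL-seq anneals pairs of probes to the mRNA of a fixed panel, ligates neighbouring probes and counts the ligated products by sequencing. HK-2 is an established human line of proximal tubule epithelial cells. The cells grew at 3000 per well and received an ethanol extract of Roucongrong (Cistanche deserticola), Yinyanghuo (Epimedium brevicornu) or Gusuibu (Drynaria fortunei) at 100 μg/mL for 24 h, in 3 wells per herb. A set of 16 control wells with 0.5% DMSO belonged to each herb, and all sets together held 57 wells. The labels give no DMSO percentage for the herb wells and do not say whether the sets were plates, days or runs. All wells held the same line, and no other agent is named. The labels do not say that wells were separate cultures, so errors and p-values measure only the spread between wells, which may be technical.

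N-cadherin, the product of CDH2, is a transmembrane protein that binds N-cadherin of the next cell. It is typical of neural and mesenchymal cells and is also known in the proximal tubule, where it stands beside or in place of E-cadherin. CTNND1 encodes p120-catenin, which binds the cadherin tail near the membrane and keeps cadherins from being taken up and degraded. ACTB encodes beta-actin, the filament protein to which the cadherin complex is tied through alpha-catenin, and VIM encodes vimentin, the intermediate filament protein of mesenchymal cells. Epithelial cells that turn towards a mesenchymal state are known to gain N-cadherin and vimentin. ACTB is also widely used as a reference gene.

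The identity of the cells could not be checked on this panel. None of the 10 proximal tubule markers and none of the 6 epithelial markers listed for the check, CDH1 among them, was on it. Of markers of other cells, the endothelial cadherin gene CDH5 had a median of 0 counts in the DMSO wells, and the fibroblast collagen gene COL1A2 had no more than 1 count in any well. The immune gene ITGAM had at most 3 counts. KDR of the endothelial list and ITGB2 of the immune list were detected, with 1 to 29 counts (median 8) and 3 to 22 counts (median 10) in the DMSO wells. Total counts ranged from 13581 to 75969 per well, with a median of 35239. The second Yinyanghuo well had the lowest total of all and stood apart from its replicates in several of the values below. All 4 genes were measured well above the floor of 3 counts in every well, with a lowest value of 20 counts, for CTNND1 in that second Yinyanghuo well. Counts depend on each gene's probes, so levels are compared between wells and not between genes. They are given as CPM, counts scaled to a common library total, scaled within a set by the TMM method, which takes most genes to be equal between wells.

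Promoter windows of RefSeq on GRCh38.p14 covered 2 of the 4 genes, VIM and CDH2. CDH2 has 2 windows there, and the one at the gene's own 5′ end was used. The 250 bases upstream of each gene's start are shown because these are the pair of mesenchymal markers among the 4 genes and their levels rose and fell together in 1 of the DMSO sets. The window of VIM lies at chr10:17227991-17228240 on the plus strand and that of CDH2 at chr18:28177131-28177380 on the minus strand. Capitals mark the GC box GGGCGG on either strand.
VIM: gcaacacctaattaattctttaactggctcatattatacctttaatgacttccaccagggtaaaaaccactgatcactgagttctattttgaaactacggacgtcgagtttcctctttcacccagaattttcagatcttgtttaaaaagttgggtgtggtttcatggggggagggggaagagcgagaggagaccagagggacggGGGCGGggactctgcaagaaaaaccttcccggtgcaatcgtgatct
CDH2: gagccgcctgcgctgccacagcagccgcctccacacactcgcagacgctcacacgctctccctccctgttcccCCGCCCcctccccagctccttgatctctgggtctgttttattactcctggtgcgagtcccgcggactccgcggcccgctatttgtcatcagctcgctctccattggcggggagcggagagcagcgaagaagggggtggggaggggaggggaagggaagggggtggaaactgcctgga
Each window held 1 GC box, and 42.6% of all 35116 windows of this length held at least 1. The E-box CANNTG, the pattern bound by TWIST1 and ZEB1, which were also on the panel, was in neither window, while 61.8% of all windows held at least 1. GC content was 46.0% for VIM and 66.0% for CDH2, with a median of 58.0% over all windows.

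Calls used the study's criteria, a fold change above 1.5 or below 0.67 at an unadjusted p under 0.05, with edgeR's quasi-likelihood test over the whole panel. Of the 4 genes, 0 were called with Roucongrong, where 10.2% of all genes tested were. With Yinyanghuo, 1 of them was called, CTNND1, beside 15% of all genes, or 7.25% counted in the lower direction alone. None was called with Gusuibu (0 of 4, beside 9.45% of all genes), where each of the 4 lay under the DMSO median in every well, as 16.9% of all genes were. With Yinyanghuo, VIM, CTNND1 and ACTB lay below the median in all 3 wells, as did 16.5% of all genes, and with Roucongrong CDH2, VIM and ACTB lay above it, as did 14.9%. The shares of all genes include genes with few counts. A mean count of 5 was reached by 225 of 402 genes tested with Roucongrong, 214 of 400 with Yinyanghuo and 218 of 402 with Gusuibu. CCL5, for example, was called with Roucongrong at a mean count of 0.05, while the lowest mean count of the 4 genes was 98.2. Since these contrasts chose the genes, nothing is read from these numbers of genes.

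**Figure D1:**
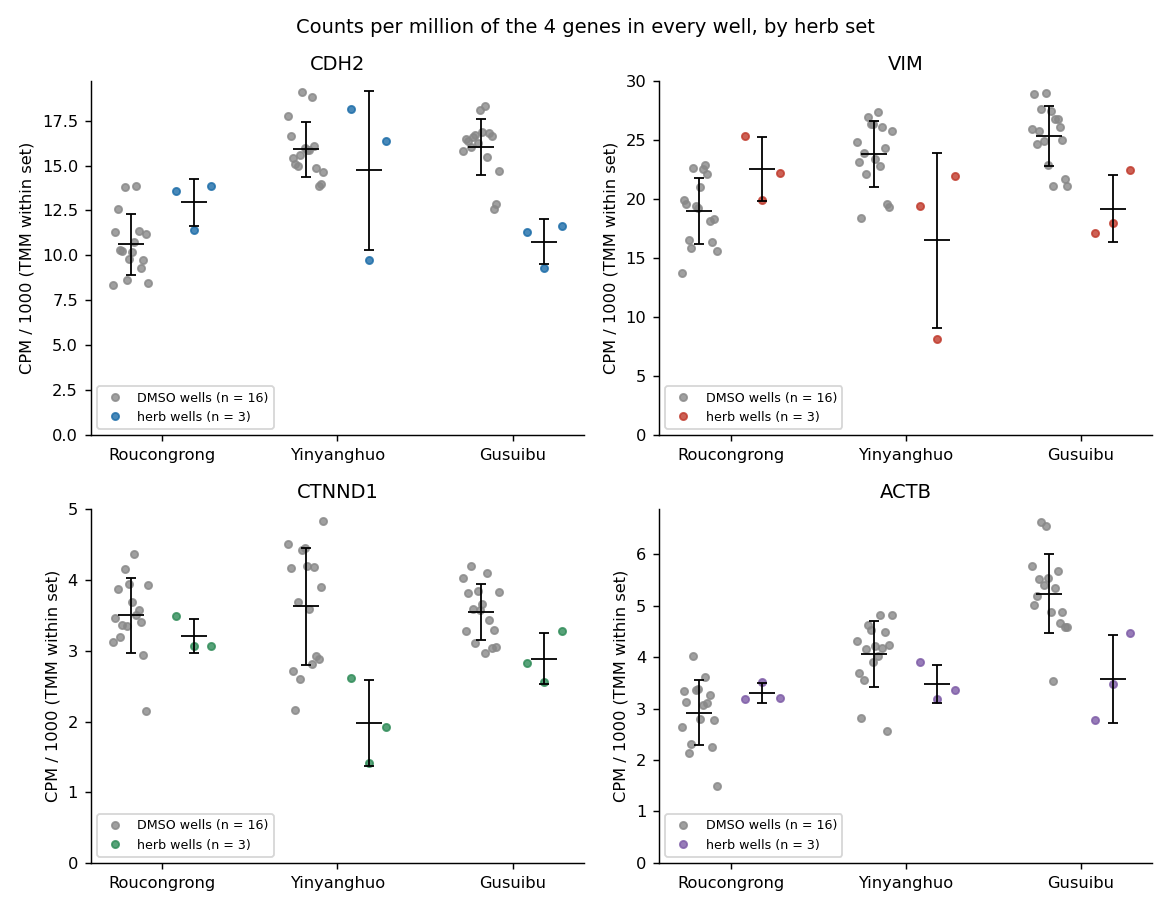
CPM (divided by 1000, scaled within a set) of CDH2, VIM, CTNND1 and ACTB in each well, with grey points for the 16 DMSO wells of a set and coloured points for its 3 herb wells; bars give the mean and SD. The 3 Gusuibu wells lie below all 16 DMSO wells for CDH2, and the second Yinyanghuo well is the lowest point for VIM.

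For CDH2, the 3 Gusuibu wells had 11312, 9319.9 and 11656 CPM. The 16 DMSO wells of that set lay between 12592 and 18286, with a median of 16404. The groups did not overlap, since the highest Gusuibu well was below the lowest DMSO well. For 1.24% of all genes, every Gusuibu well was below every DMSO well. The means were 10763 ± 1261 (SD, n = 3) and 16025 ± 1550.04 (SD, n = 16) CPM. On the log2 scale the change was -0.58 with a standard error of 0.10. This is 0.671-fold, just outside the criterion of 0.67, and CDH2 passed that criterion without the first and without the third Gusuibu well, at log2 fold changes of -0.62 and -0.64. Without the second well it was -0.48, and with DMSO wells of the other sets -0.31, where CDH2 was not called. Over the library-wide scalings tried, the log2 fold change lay between -0.58, the TMM value, and -0.50, farther from the criterion.

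With Roucongrong, CDH2 had 13580.3, 11425 and 13843 CPM. Its DMSO wells had a median of 10267, between 8367 and 13866. All 3 herb wells were above the median and none was above the highest DMSO well, so the groups overlapped. The log2 fold change was 0.28 (standard error 0.13), and -0.22 when the other sets supplied the DMSO wells. With Yinyanghuo the wells had 18132, 9744 and 16346 CPM, and the DMSO wells 13843 to 19116 with a median of 15732. Only the second well was outside the DMSO range. The log2 fold change was -0.10 (standard error 0.13) with that well and 0.11 without it.

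VIM had 19416.5, 8120.03 and 22010.3 CPM in the Yinyanghuo wells. The DMSO wells of that set lay between 18440.2 and 27444, with a median of 24134. All 3 herb wells were below the DMSO median, but only the second was below the DMSO range, with 115 counts where the other 2 had 408 and 781. The means were 16516 ± 7386 (SD, n = 3) and 23831 ± 2811 (SD, n = 16) CPM. The log2 fold change of -0.52 (standard error 0.17) was -0.20 without the second well, and it was -0.64 without the first and -0.78 without the third, where VIM met the criteria. One well thus decided its size.

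In the Gusuibu wells VIM had 17181, 17974 and 22482 CPM, against 21118 to 28986 with a median of 25878 in the DMSO wells. The first and second wells were below every DMSO well and the third was above 3 of the 16. VIM had a log2 fold change of -0.40 (standard error 0.10). The Roucongrong wells had 25385, 19981 and 22232 CPM, against 13735 to 22932 with a median of 19355. All 3 were above the DMSO median, the first above all DMSO wells. Here the log2 fold change was 0.24 (standard error 0.12), and it was -0.05 with the DMSO wells of the other sets.

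CTNND1 showed another order of the herbs. In the Yinyanghuo wells it had 2617, 1412 and 1916 CPM, from 55, 20 and 68 counts. The 16 DMSO wells lay between 2156 and 4837 CPM, with a median of 3793. The first herb well was above 2 of the 16, and the other 2 were below every DMSO well. The means were 1982 ± 605 (SD, n = 3) and 3630.05 ± 829.5 (SD, n = 16) CPM. CTNND1 thus had a log2 fold change of -0.86 with a standard error of 0.23, or 0.550-fold. CTNND1 was called under each of 10 alternatives that kept a library-wide scale, and its log2 fold change lay between -1.10 and -0.70 in them. None of them had the totals of the wells as a term. In the DMSO wells of this set, log2 CPM of CTNND1 had an r of 0.72 with log2 total. The Yinyanghuo wells had totals of 21916, 13581 and 35307. DMSO wells with totals of 19690 to 23382 had 2156 to 2884 CPM, and those with 33187 and 36858 had 2929 and 4451. The part of depth in this change was not tested.

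With Gusuibu, CTNND1 had 2828, 2560.4 and 3282 CPM, and the DMSO wells 2967 to 4197 with a median of 3584. The first and second wells lay below the DMSO range, at a log2 fold change of -0.30 (standard error 0.13). With Roucongrong it had 3489, 3068 and 3073 CPM, within the DMSO range of 2142 to 4375. The log2 fold change there was -0.13, smaller than its standard error of 0.15.

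ACTB, the reference gene, had 2775, 3482 and 4475 CPM in the Gusuibu wells. The DMSO wells of the set lay between 3533 and 6627, with a median of 5272. The first and second Gusuibu wells were below every DMSO well, and the third was above 1 of them. The means were 3577 ± 854 (SD, n = 3) and 5236 ± 763 (SD, n = 16) CPM. ACTB had a log2 fold change of -0.53 with a standard error of 0.15. With DMSO wells of the other sets it was 0.03.

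Yinyanghuo gave 3902, 3177 and 3354 CPM of ACTB, inside the DMSO range of 2573 to 4815, at a log2 fold change of -0.22 (standard error 0.16). Roucongrong gave 3177, 3517 and 3212 CPM, inside the DMSO range of 1502 to 4026. That log2 fold change was 0.18 (standard error 0.18), and -0.42 with DMSO wells of the other sets. ACTG1, which encodes the near-identical gamma-actin, was on the panel too, at 1 to 21 counts in the DMSO wells. The probes were not used here, so whether reads of either gene were counted for the other was not tested.

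Where ACTB counts were used as the scale of each well in place of TMM, as in a reference-gene assay, the pattern with Gusuibu turned. The log2 fold change of CDH2 went from -0.58 to -0.01, that of VIM from -0.40 to 0.15 and that of CTNND1 from -0.30 to 0.25. The median of all genes moved by 0.52 at the same time, from 0.04 to 0.55, so each of the 3 genes moved by about as much as the panel did. In counts, CDH2 per ACTB was 4.08, 2.68 and 2.61 in the Gusuibu wells, within the range of 2.48 to 5.18 in the DMSO wells. With Yinyanghuo, CTNND1 remained lower on this scale, at -0.67, and VIM was at -0.34. The median of all genes moved by 0.18 in that set and by -0.24 in the Roucongrong set, where CTNND1 was at -0.37, CDH2 at 0.07 and VIM at 0.03.

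**Figure D2:**
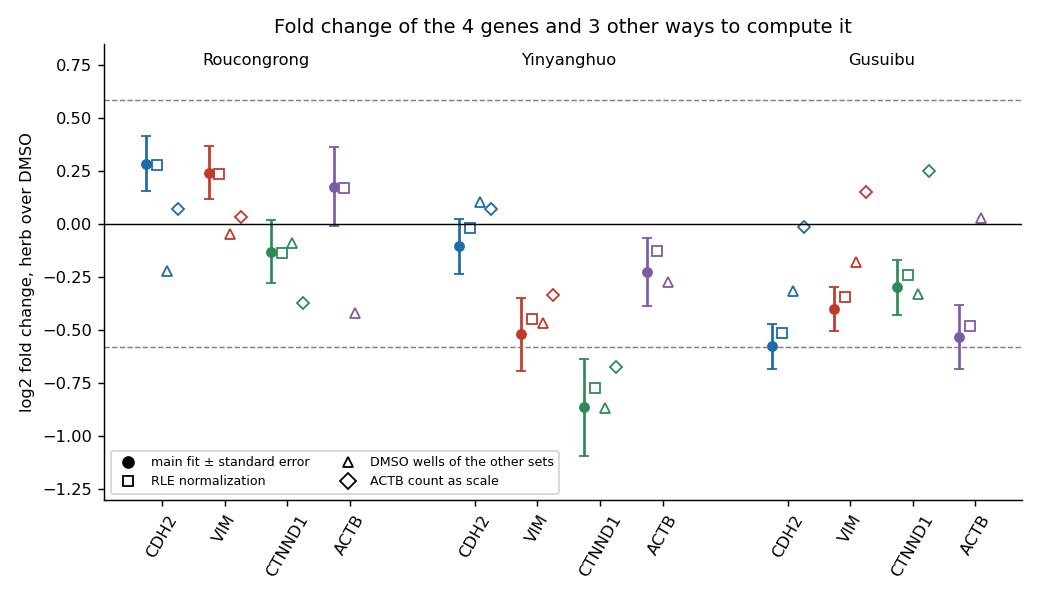
Log2 fold change of each gene, herb over DMSO, for the 3 herbs: filled circles with standard errors are the values of the text, open squares use RLE normalization, triangles other sets' DMSO wells and diamonds ACTB counts as the scale. Dashed lines mark the fold criteria; of the filled circles, CTNND1 with Yinyanghuo lies past the lower one, and CDH2 with Roucongrong changes sign with the other DMSO wells (-0.22).

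The ratio of a pair of these genes within a well needs no scaling, but it may still move with depth. In the DMSO wells of the Yinyanghuo set, the r of log2 CPM and log2 total was 0.72 for CTNND1 and 0.24 for CDH2. The part of depth in the ratios was not tested. CTNND1 per CDH2 was 0.144, 0.145 and 0.117 in the Yinyanghuo wells, against 0.143 to 0.331 with a median of 0.239 in the DMSO wells. The third well was below the DMSO range, and the first and second were near its bottom. VIM per CDH2 was 1.07, 0.833 and 1.35, against 1.20 to 1.77 with a median of 1.48. In the Gusuibu wells CTNND1 per CDH2 was 0.250, 0.275 and 0.282, against 0.162 to 0.266 with a median of 0.225, and all but the first well were above every DMSO well. The direction of this ratio against the DMSO median thus differed between Yinyanghuo and Gusuibu, a difference that was not tested.

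The DMSO wells of the 3 sets were also tested against each other, with CPM scaled over all 48 wells. These DMSO levels are part of the herb contrasts that were known when the genes were chosen. The p-values of the set comparisons are therefore not independent of that choice. CDH2 was lowest in the Roucongrong set, with 11098 ± 1918 CPM, against 15494 ± 1437 in the Yinyanghuo set and 15644 ± 1538 for Gusuibu (SD, n = 16 each). It was higher by 0.49 on the log2 scale in the Gusuibu set (standard error 0.07, edgeR adjusted p = 1.1e-08) and by 0.48 in the Yinyanghuo set (edgeR adjusted p = 2.5e-08) than in the Roucongrong set. The Yinyanghuo and Gusuibu sets were not separated for CDH2 (difference -0.01, standard error 0.06, edgeR adjusted p = 0.92). For all genes, 26.2% differed among the 3 sets at an adjusted p under 0.05, 22.6% between the Gusuibu and Roucongrong sets and 21.4% between the Yinyanghuo and Roucongrong sets.

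ACTB differed between every pair of sets. It had 3051 ± 680.1 CPM in the Roucongrong set, 3962 ± 655 for Yinyanghuo and 5106 ± 706 for Gusuibu (SD, n = 16 each). The steps from the Roucongrong set were 0.38 (edgeR adjusted p = 0.00178) and 0.74 (edgeR adjusted p = 4.5e-09). From the Yinyanghuo set to the Gusuibu set, where 5.83% of all genes differed, ACTB was higher by 0.36 on the log2 scale, which is coded as a Yinyanghuo minus Gusuibu difference of -0.36 (edgeR adjusted p = 0.00755). VIM had 19869 ± 3105, 23247 ± 2977 and 24773 ± 2395 CPM in the same order (SD, n = 16 each). It was higher than in the Roucongrong set by 0.23 (edgeR adjusted p = 0.00838) and 0.32 (edgeR adjusted p = 0.000131), and its Yinyanghuo and Gusuibu sets were not separated (edgeR adjusted p = 0.464).

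CTNND1 did not pass the test of the 3 sets (edgeR adjusted p = 0.822). It had 3658 ± 584 CPM in the Roucongrong set, 3538 ± 819 for Yinyanghuo and 3468 ± 405 for Gusuibu (SD, n = 16 each), with differences from -0.08 to 0.03 on the log2 scale and standard errors of 0.09. CDH2, VIM and ACTB thus differed between control sets by up to 0.74 on the log2 scale, and where wells of another set are the reference, herb and set cannot be told apart. Their spread among DMSO wells was wider than counting alone gives. The coefficient of variation of CDH2 was 9.27% to 17.3%, where counting gives 4.14% to 4.66%, and that of CTNND1 11.7% to 23.1%, where counting gives 7.92% to 9.64%.

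Within the DMSO wells of a set, VIM and ACTB moved together. Their Pearson r of log2 CPM was 0.74 in the Roucongrong set (permutation p = 0.00115, adjusted 0.01035 over 18 relations), with a Spearman rho of 0.75 (permutation p = 0.0011, adjusted 0.0198). Without the 2 wells farthest from the VIM median, r was 0.79. In the Gusuibu set r was 0.64 (permutation p = 0.00644, adjusted 0.0290) and rho 0.51 (permutation p = 0.0448, adjusted 0.142), and in the Yinyanghuo set r was 0.69 (permutation p = 0.00498, adjusted 0.0290) and rho 0.38 (permutation p = 0.149, adjusted 0.317). Without 2 wells, these fell to 0.32 and 0.11, so in both sets the relation rests on those wells.

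CDH2 followed VIM in the Roucongrong set, at r = 0.75 (permutation p = 0.00076, adjusted 0.01035), rho = 0.70 (permutation p = 0.00317, adjusted 0.0285) and r = 0.62 without the 2 wells farthest from the CDH2 median. It also followed ACTB there, at r = 0.60 (permutation p = 0.0133, adjusted 0.0480), rho = 0.53 (permutation p = 0.0347, adjusted 0.142) and r = 0.56 without 2 wells. In the Gusuibu set r of CDH2 and VIM was 0.17 (permutation p = 0.528, adjusted 0.594) and rho 0.10 (permutation p = 0.723, adjusted 0.765). Without the 2 wells farthest from the CDH2 median, r there was -0.35. In that set r of CDH2 likewise went from 0.09 to -0.68 with CTNND1 and from 0.05 to -0.47 with ACTB. Of the 18 relations, 5 passed an adjusted p of 0.05 by Pearson's r and 2 by Spearman's rho. The 5 were VIM with ACTB in each set, and CDH2 with VIM and with ACTB in the Roucongrong set. None of the 5 involved CTNND1. Levels also moved with the wells' totals: the r of log2 CPM and log2 total was 0.72 for CTNND1 and 0.61 for ACTB in the Yinyanghuo set and -0.07 for ACTB in the Roucongrong set. The part of depth in the relations was not tested.

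**Figure D3:**
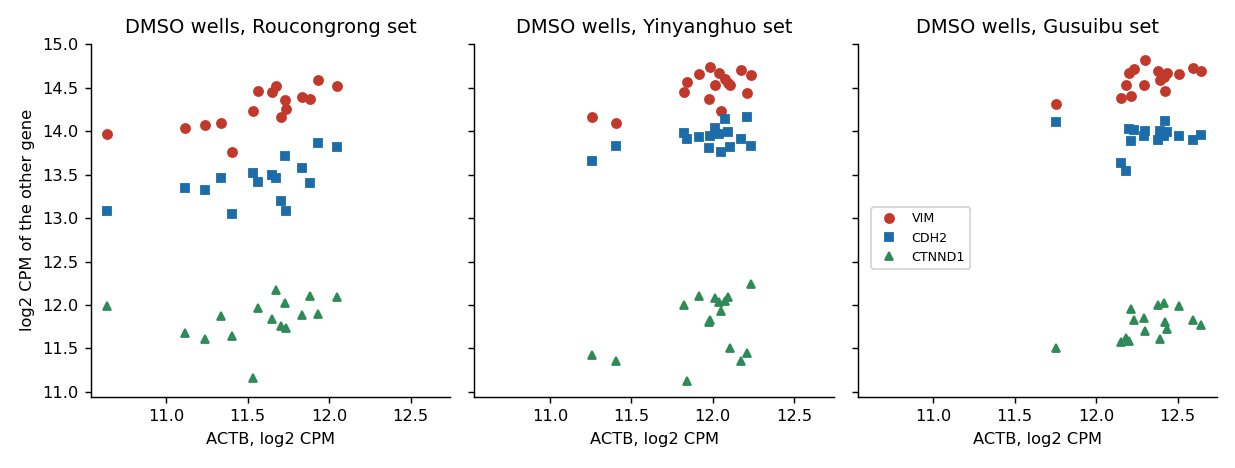
Log2 CPM of VIM (circles), CDH2 (squares) and CTNND1 (triangles) against log2 CPM of ACTB in the 16 DMSO wells of each set. VIM rises with ACTB across the Roucongrong set (r = 0.74), while in the Yinyanghuo set 2 wells of low ACTB carry the relation (r = 0.69, and 0.11 without the 2 wells farthest from the VIM median).

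The genes most like each of the 4 were sought over the 48 DMSO wells, each set centred on its mean, among the 143 genes whose mean count reached 20. These values of r share libraries and depth and are a description. CDH2 was most like YWHAB (r = 0.74), RHOA (0.69) and YWHAE (0.68), and VIM most like RHOA (0.75), SDC2 (0.73) and LCN2 (0.71). YWHAB and YWHAE encode 14-3-3 proteins, RHOA a small GTPase that drives actin stress fibres, SDC2 the cell surface proteoglycan syndecan-2 and LCN2 lipocalin-2, a secreted protein known from injured tubules. ACTB was most like VIM (0.70), YWHAZ (0.61) and GNB1 (0.56). CTNND1 had lower values, with FN1 (0.55), GNG10 (0.54) and YWHAZ (0.51). Some of these differed between sets: in the Roucongrong, Gusuibu and Yinyanghuo sets r was 0.83, 0.73 and 0.20 for CDH2 and RHOA, 0.59, 0.30 and 0.63 for CTNND1 and FN1, and 0.58, 0.04 and 0.67 for CTNND1 and GNG10.

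Some of these neighbours changed with the herbs. LCN2 fell by 0.99 on the log2 scale with Yinyanghuo (standard error 0.22, edgeR adjusted p = 0.00282) and passed the test with each well left out in turn. FN1, the fibronectin gene and the nearest neighbour of CTNND1, fell by 1.48 with Yinyanghuo (edgeR adjusted p = 5.1e-06) and was at 0.30 with Gusuibu (edgeR adjusted p = 0.128). SDC2 fell by 0.72 with Yinyanghuo (edgeR adjusted p = 0.000997) and was at -0.49 without the second well. RHOA fell by 0.43 with Yinyanghuo (standard error 0.11, edgeR adjusted p = 0.013), which became -0.23 without the second well (edgeR adjusted p = 0.151). With Gusuibu, RHOA fell by 0.47 (edgeR adjusted p = 0.00651), SDC2 by 0.44 (edgeR adjusted p = 0.012) and YWHAE by 0.36 (edgeR adjusted p = 0.0116), all short of the fold criterion. Without the second Gusuibu well these were -0.39, -0.41 and -0.32, at edgeR adjusted p of 0.103, 0.115 and 0.115. With DMSO wells of the other sets RHOA was at -0.07 and YWHAE at 0.25. With Roucongrong, none of the 9 neighbours that are not among the 4 genes passed an adjusted p of 0.05. Of these 9, 0 were called with Roucongrong, beside 10.2% of all genes, and 0 with Gusuibu, beside 9.45%. With Yinyanghuo only LCN2, FN1 and SDC2 of them were called, where 15% of all genes were. YWHAB and YWHAZ were at 0.24 and 0.05 with Yinyanghuo, and YWHAE, GNB1 and GNG10 at -0.34, -0.35 and -0.25.

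Other genes of the cadherin complex were few on the panel. Of 4 besides CDH2 and CTNND1, 0 were called with any herb, where 10.2%, 15% and 9.45% of all genes were called with Roucongrong, Yinyanghuo and Gusuibu. CTNNA1, the gene of alpha-catenin, which ties the complex to actin, had log2 fold changes of 0.24 with Roucongrong, -0.52 with Yinyanghuo (edgeR adjusted p = 0.288) and -0.45 with Gusuibu (edgeR adjusted p = 0.391). CTNNB1, the gene of beta-catenin, which binds the cadherin tail and also carries Wnt signals, had 0.30, 0.31 and 0.47 on 3 to 28 counts in the DMSO wells. JUP, the gene of plakoglobin, was at -0.23, -0.20 and -0.14. The standard errors of these 3 genes ran from 0.23 to 0.48.

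Of 9 other mesenchymal markers and matrix genes, 1 was called with Roucongrong, lower, where 10.2% of all genes were called. With Yinyanghuo 3 were called, all lower, where 15% of all genes were called and 7.25% were called lower. With Gusuibu 1 of 8 tested was called, higher, where 9.45% of all genes were called. The matrix proteoglycan gene VCAN was called in each herb, lower with Roucongrong and Yinyanghuo and higher with Gusuibu, where its log2 fold change of 0.75 (edgeR adjusted p = 0.0298) stood against -0.58 for CDH2 and -0.40 for VIM. With DMSO wells of the other sets VCAN was not called with Roucongrong (-0.12) or Gusuibu (0.28). Leaving out each Gusuibu well in turn gave it an edgeR adjusted p of 0.104, 0.144 and 0.0837, and leaving out the first or the third Roucongrong well gave 0.138 and 0.444. FN1 and SDC2 were the other 2 called with Yinyanghuo, and SDC2 was not called without the second well or with DMSO wells of the other sets (-0.49 in both). The medians of the list were 0.04, -0.56 and 0.01, and those of all genes -0.04, -0.13 and 0.04. Over the 7 list genes with a mean count of 5 or more, they were 0.04, -0.72 and -0.15. The regulators TWIST1 and ZEB1 were not called with any herb: TWIST1 was at 0.22, -0.49 and -0.15 and ZEB1 at 0.31, 0.45 and 0.18, with standard errors from 0.32 to 0.44.

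Of 17 actin genes besides ACTB, 1 was called with Roucongrong (higher), 5 with Yinyanghuo (2 higher and 3 lower) and 0 with Gusuibu, against 10.2%, 15% and 9.45% of all genes. The medians of the list were 0.15, -0.37 and 0.08, and over the 10, 10 and 11 genes with a mean count of 5 or more -0.04, -0.49 and 0.09. Of these genes with more counts, 0, 3 and 0 were called, so every actin gene called higher had a mean count under 5. Of those called, 2 had an adjusted p under 0.05, both with Yinyanghuo. NCK1, an adaptor that links tyrosine kinases to actin assembly, had 49, 17 and 95 counts against 58 to 147 with DMSO. Its log2 fold change was -0.69 (edgeR adjusted p = 0.013). WASF1, a part of the complex that starts branched actin, had 63, 17 and 96 counts against 66 to 175, also -0.69 (edgeR adjusted p = 0.0309). Both were lowest in the second Yinyanghuo well in counts and in CPM, and without it they were at -0.45 and -0.42, at edgeR adjusted p of 0.132 and 0.259.

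Of 6 kinases that act on cadherin complexes or the adhesions beside them, 1 was called with each herb, beside the same shares of all genes. PTK2B, the gene of the kinase PYK2, was the only one of them with an adjusted p under 0.05. It rose with Gusuibu, with 20, 94 and 47 counts against 8 to 44 with DMSO, by 1.30 on the log2 scale (standard error 0.31, edgeR adjusted p = 0.0135). Leaving out the second Gusuibu well gave 0.74 (edgeR adjusted p = 0.423). With DMSO wells of the other sets PTK2B was at 0.875 (edgeR adjusted p = 0.352), and with all 57 wells in one fit at 1.30 (edgeR adjusted p = 0.104). SRC, the gene of a kinase known to phosphorylate p120-catenin, was called with no herb, at -0.72, 0.235 and -0.44 with Roucongrong, Yinyanghuo and Gusuibu (standard errors 0.35 to 0.40).

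**Figure D4:**
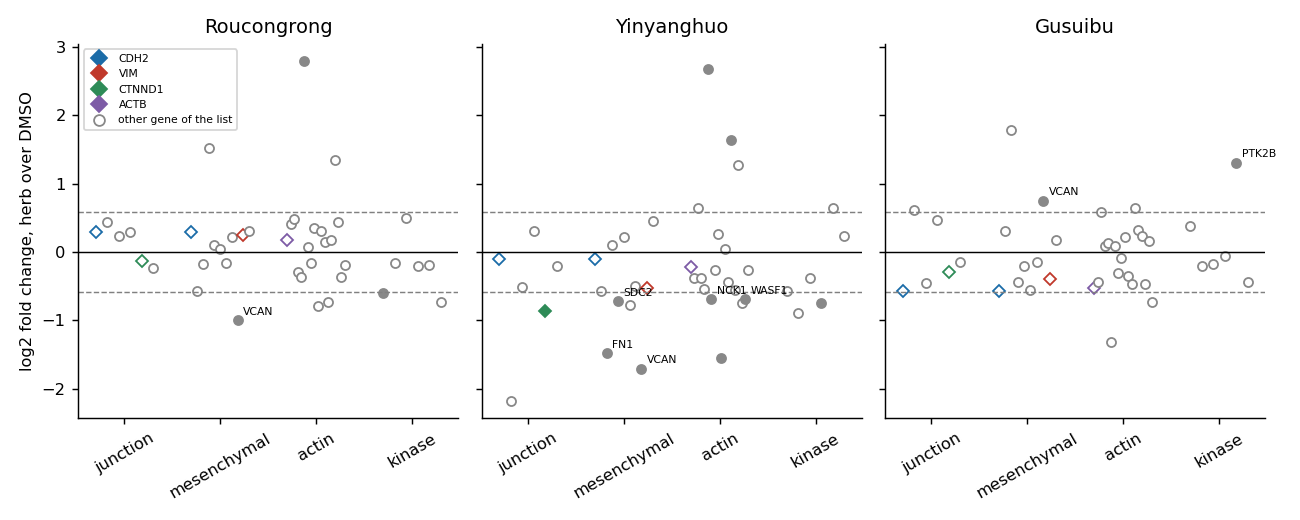
Log2 fold change of the genes of the 4 lists, herb over DMSO, in 1 panel per herb; diamonds are CDH2, VIM, CTNND1 and ACTB, circles other genes, filled where called, with symbols at those with an adjusted p under 0.05. Dashed lines mark the fold criteria. With Yinyanghuo CTNND1 is the only filled diamond, and FN1, VCAN and SDC2 lie below the lower line with it.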

How the data were processed

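Expression was measured by RASL-seq in 57 wells of HK-2 cells. The deposited values are raw counts of ligated probe reads, listed by Entrez identifier. The authors had removed reads with more than 3 base mismatches. The submitters' processing notes name Bowtie2 2.2.4 and DESeq2 1.22.1, and the genome build is not given in the sources used here. All 412 identifiers matched a symbol. Totals were 13581 to 75969 counts per well, and intervals from depth cover counting error only. Wells were grouped by their labels and none was left out. Replicate wells differed by at least 1.69 in chi-squared per degree of freedom, so no 2 wells were counted as 1.

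Per herb, 3 treated and 16 DMSO wells of 1 set entered a fit by edgeR 4.0.16 in R 4.3.3 (TMM, quasi-likelihood F test, all genes with a nonzero total, Benjamini-Hochberg adjustment over all genes tested), and the 48 DMSO wells were compared between sets in a fit of their own. Correlations used log2 CPM with a prior count of 2 and 100000 permutations, two-sided. The genes, the lists and the tests were chosen with earlier results of these data known. Named genes are CDH2, VIM, CTNND1 and ACTB, the 3 genes most like each in the DMSO wells, and list genes called with an adjusted p under 0.05. Others (CDH5, KDR, COL1A2, ITGAM, ITGB2, ACTG1, CTNNA1, CTNNB1, JUP, TWIST1, ZEB1, SRC) were named for their roles, after their values were seen. CDH1 was named as a marker absent from the panel, and CCL5 as an example of a call on few counts. The fits were tested on simulated data. Alternatives were RLE, total count only, ACTB as scale, DESeq2 1.42.0, filterByExpr, a replicate block, all 57 wells in one fit, DMSO wells of the other sets, a prior count of 0.5 and leaving out each treated well. Figures were drawn with matplotlib 3.10.9.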

Additional observations from a re-analysis of the deposited data

Results flagged for a closer look

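For some of the 4 genes, all 3 wells of one herb were above the DMSO median of their set and all 3 wells of another herb were below theirs. These differences between herbs were not tested, since the herb values chose the genes. CDH2 was above with Roucongrong and below with Gusuibu, and the log2 fold changes differed by 0.86. VIM was above with Roucongrong and below with Yinyanghuo and Gusuibu, with differences of 0.76 and 0.64. ACTB was also above with Roucongrong and below with both other herbs, with differences of 0.40 from Yinyanghuo and 0.71 from Gusuibu. With DMSO wells of the other sets, the Roucongrong values of CDH2, VIM and ACTB were -0.22, -0.05 and -0.42, on the other side of 0.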

How the results depend on the processing

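Of 129 recomputed log2 fold changes of the 4 genes, 116 moved by less than the spread between wells. The exceptions were the following. With DMSO wells of the other sets, CDH2 was at -0.22 with Roucongrong, 0.10 with Yinyanghuo and -0.31 with Gusuibu, VIM at -0.048 with Roucongrong and -0.18 with Gusuibu, and ACTB at -0.42 with Roucongrong and 0.029 with Gusuibu. With ACTB as scale, CTNND1 was at -0.37 with Roucongrong, and CDH2, VIM and CTNND1 were at -0.013, 0.15 and 0.25 with Gusuibu. With each Yinyanghuo well left out in turn, CDH2 lay between -0.28 and 0.11 and VIM between -0.78 and -0.20, and the number of the 4 genes called lay between 1 and 2. With each Gusuibu well left out that number lay between 0 and 2. RLE moved the median of all genes by 0.08 with Yinyanghuo and by 0.06 with Gusuibu. The cause of these differences was not tested.

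The replicate numbers were not taken to pair the wells, since not every pair of the same number correlated above 0.1. Deviations of herb and DMSO wells of the same number correlated at -0.53 to 0.50, over 0.1 in 2 of 9 pairs, and DMSO wells of the same number in 2 sets at -0.30 to 0.83, with 10, 8 and 10 of 16 pairs over 0.1. The highest were those of number 14, at 0.74, 0.74 and 0.83. Numbers 2, 5, 9, 12, 13 and 15 were also above 0.1 in every pair of sets, with 0.57, 0.52 and 0.59 for number 12. Wells of different numbers were not compared, so whether a number marks something shared between sets was not tested. With a replicate block, calls over all genes went from 41 to 26 with Roucongrong, 60 to 37 with Yinyanghuo and 38 to 22 with Gusuibu. Only replicate numbers 1 to 3 held both herb and DMSO wells, so DMSO wells 4 to 16 gave nothing to the herb contrast under this block. These fits thus compared fewer wells than the main fits, and their calls do not show the effect of pairing alone. Under this block, 2 of the 4 genes were called with Gusuibu (CDH2 at -0.60 and ACTB at -0.58), 1 with Yinyanghuo (CTNND1 at -0.93) and 0 with Roucongrong, and the numbers of actin genes called were 0 with Roucongrong and 2 with Yinyanghuo.

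List counts moved in 26 of 120 recomputations. Actin genes called with Roucongrong were 0 with DESeq2 and filterByExpr and 0 to 2 with a well left out. With Yinyanghuo they were 3 with DESeq2, 2 with filterByExpr and 2 to 5 with a well left out, and with Gusuibu 0 to 2. Kinase genes called were 0 with filterByExpr, 2 with the other DMSO wells and 0 to 1 with a well left out for Roucongrong. For Yinyanghuo they were 0 with DESeq2, 3 with the other DMSO wells and 0 to 2 with a well left out, and for Gusuibu 2 with the other DMSO wells and 0 to 1 with a well left out. Mesenchymal genes called were 0 with the other DMSO wells for Roucongrong and 1 to 3 with a well left out for Gusuibu. Junction genes called were 0 to 1 with a well left out for Yinyanghuo and for Gusuibu. Differences between DMSO sets kept their direction and side of the threshold in 65 of 65 recomputations. Of the correlations, VIM and ACTB in the Yinyanghuo set missed the threshold with RLE (r = 0.60, adjusted permutation p = 0.0507). Depth limits the genes with few counts, such as CTNNB1.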
